A study of Mus musculus with 36 samples.

Results

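The 10 genes described here encode the axon guidance ligands Slit2 and Slit3, their receptors Robo1 and Robo2, the class 3 semaphorins Sema3a, Sema3c and Sema3d, and the semaphorin receptors Nrp1, Nrp2 and Plxnd1. They were chosen by symbol, as every probe set annotated to one of these symbols alone. That gave 24 of 45037 probe sets and 10 of 18193 genes with a probe set of their own. Of the 24 probe sets, 20 passed the filter on low values, and these covered 9 genes. Robo2 was the gene left out.

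Gene expression was measured on 36 Affymetrix arrays of C57BL/6 mouse embryos from timed matings, in 12 groups of 3 arrays. At embryonic days E10.5 and E11.5 the tissue was the middle of the embryo with the heart in it, called the heart region here, although another label names it as whole heart. On the 5 later days, E12.5 to E14.5 at daily steps, then E16.5 and E18.5, both ventricles and the atria were taken apart and formed separate groups. The labels name no mutation and no treatment in any group. The day of the E16.5 arrays was read from their titles, and their descriptions give a different day. The labels leave it unstated whether arrays of a group came from different litters or animals, and p-values therefore measure the spread between these samples. In whole tissue, fewer cells of a type and less RNA per cell cannot be told apart.

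Slits are large secreted proteins that bind Robo receptors, and the pair is known for repelling growing axons and, in the heart, for roles in the alignment of the early tube, the pericardium, the caval veins and the septa. Class 3 semaphorins are secreted as well. They bind neuropilins, which pass the signal on through plexins, except that some class 3 semaphorins bind Plxnd1 directly. Sema3a is known for setting the pattern of cardiac sympathetic nerves, Sema3c with Plxnd1 for septation of the outflow tract, and Sema3d for the connection of the pulmonary veins.

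Slit3 was higher in atria at all 5 ages, by 10.2-fold in the mean of the ages, and Sema3d was higher by 1.77-fold. Slit2 and Sema3a fell in the ventricle between E12.5 and E18.5, by 3.43-fold and 2.91-fold, while the atrium changed less in both. Sema3c was high in the heart region and lower in the chambers. Among the receptors, Robo1 was lower in atria and fell with age in the ventricle. All folds in this account are on the scale of log2(intensity + 17), where 17 is a pseudocount, and they understate the change of a gene with low signal.

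In the mean of the 5 ages, 3 of the 9 measured genes were higher in atria (Slit3, Sema3d and Sema3a) and 4 were lower (Robo1, Slit2, Nrp2 and Nrp1). That is beside 46.5% of the 12983 genes tested, which were called in the same comparison, where called means an adjusted p below 0.05 in limma. The median log2 difference was -0.10 over the 9 genes and -0.003 over all genes tested. The log2 difference was 3.35 for Slit3, while the other 8 genes lay between -0.71 and 0.83.

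**Figure D1:**
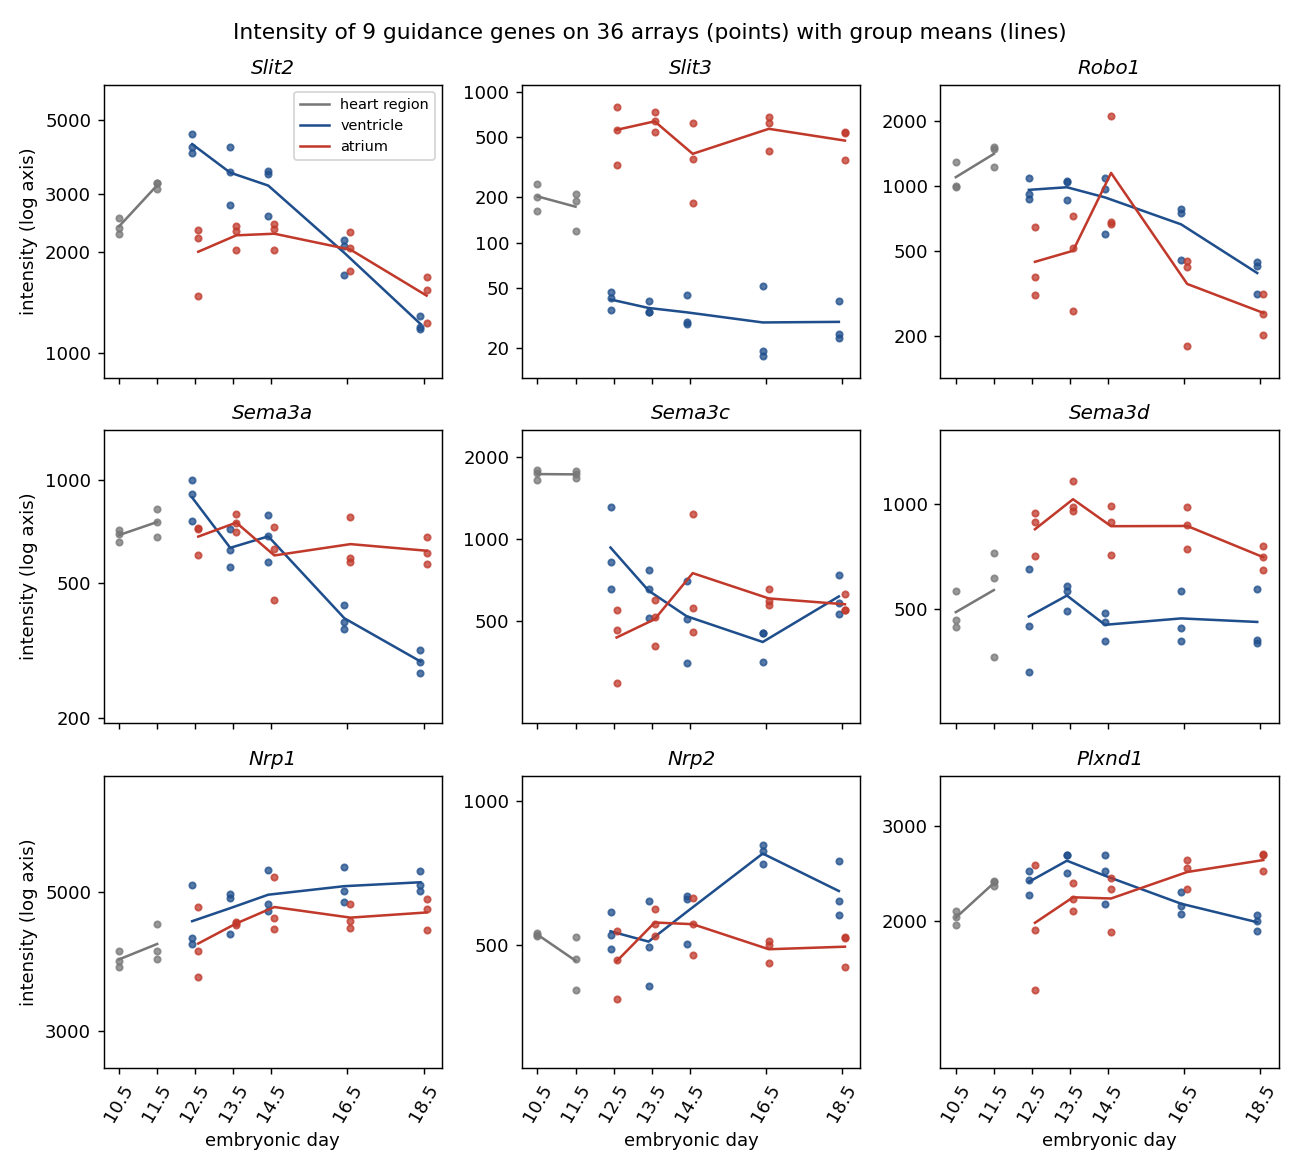
Intensity of the 9 measured genes (vertical log axis, arbitrary units) against embryonic day (horizontal axis) on 36 arrays. Each point is an array and lines join group means, in grey for heart region, blue for ventricle and red for atrium. The atrial points of Slit3 lie between 183 and 794 and its ventricular points between 17.7 and 51.7, while the blue lines of Slit2 and Sema3a fall from E12.5 to E18.5.

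Marker genes differed between arrays of a group as well as between chambers. The summed intensity of 9 ventricular muscle markers was 52508 to 84721 on ventricular arrays and 8186 to 61579 on atrial arrays. The high atrial arrays were E14.5 array 2 with 61579, E16.5 array 2 with 47778, E14.5 array 1 with 44518, E18.5 array 1 with 43396 and E12.5 array 2 with 37829, against at most 21566 on the other 10. Markers of other tissues moved as well. The sum of 8 foregut and lung markers reached 15201 on E18.5 atrial array 3, 9569 on E16.5 atrial array 3 and 5384 on E13.5 atrial array 3. The sum of the measured liver markers reached 20839 on E12.5 atrial array 2 and 11104 on E16.5 ventricular array 2. Of 10 epicardial markers, 9 were higher in atria, with sums of 10186 to 19386 in atria and 6571 to 11091 in ventricles. Of 10 fibroblast markers, 8 were higher in atria, with sums of 28277 to 71044 against 23402 to 49639. The part of these cells in the differences below was not tested, beyond the values given without the arrays named here.

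Slit3, a secreted ligand for Robo receptors that is known for roles in the diaphragm and the heart, had 1 probe set. At E12.5 its intensity was 326, 559 and 794 on the atrial arrays and 43.0, 35.9 and 46.7 on the ventricular arrays. At E18.5 it was 354, 540.0 and 529.9 in atria and 41.1, 24.8 and 23.3 in ventricles. The chambers did not overlap at any age, and the lowest of the 15 atrial arrays, at 183, stood above the highest of the 15 ventricular arrays, at 51.7.

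The log2 difference between atrium and ventricle for Slit3 was 3.21, 3.60, 2.84, 3.70 and 3.39 in order of age, each ± 0.33 (SE, 3 against 3 arrays). The mean of the ages was 3.35 ± 0.15, with an adjusted p of 7.35e-17. Because the ventricular values are low, the size of this difference depends on the pseudocount: it was 2.46 with a pseudocount of 69 and 3.87 with 1. The E14.5 atrial arrays, with 183, 359 and 621, had the widest spread on the log scale, and the arrays at 183 and 359 are those with ventricular muscle sums of 44518 and 61579. Without the 5 atrial arrays high in ventricular muscle markers, the mean difference was 3.58 and the E14.5 difference 3.65. Within a chamber Slit3 did not pass between E12.5 and E18.5, with -0.17 ± 0.33 in the atrium (adjusted p = 0.761) and -0.35 ± 0.33 in the ventricle (adjusted p = 0.467).

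In the heart region Slit3 measured 162, 199.6 and 245 at E10.5 and 211, 189 and 118 at E11.5. The group means, 202 and 173, lay above every ventricular group mean and under every atrial one. Single arrays reached into the atrial range, whose lowest value was 183. The ventricular values lay under 171.8, the median of all values on the arrays, and the file gives no detection call. Whether they stand above the array's background was not tested, so that the ratio of the mean intensities, 15.3, says less about the ventricle than about the atrium. Fitted on the 6 arrays of E14.5 alone, the Slit3 difference of that age just missed the threshold (adjusted p = 0.0513).

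Slit2, the other measured Slit, had the opposite arrangement at first and a level that changed with age. At E12.5 the ventricular arrays read 4546, 3984 and 4151 and the atrial arrays 1481, 2335 and 2211. At E18.5 the ventricular arrays read 1177, 1193 and 1289 and the atrial arrays 1226, 1540.2 and 1685. Ventricles were thus clear of atria at the first age and overlapped them at the last.

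The ventricular change of Slit2 from E12.5 to E18.5 was -1.78 ± 0.15 on the log2 scale (adjusted p = 2.98e-09), a fall of 3.43-fold with no overlap between the ages. Over the same interval 7 of 10 fibroblast markers rose in the ventricle, with a mean sum of 26104 at E12.5 and 47857 at E18.5. There 6 of 10 epicardial markers fell and 1 rose, with mean sums of 10239 and 7590. The part of these cells in the falls of Slit2, Robo1 and Sema3a was not tested. By age the ventricular means were 4227, 3471, 3174, 1993 and 1219. In the atrium the means were 2009, 2251, 2276, 2039 and 1484, and the change was -0.42 ± 0.15 (adjusted p = 0.0426). That atrial call was lost on leaving out array 2 or 3 of E12.5 or array 1 or 2 of E18.5, with adjusted p-values up to 0.234. It was also lost without the 2 arrays high in liver markers (-0.30, adjusted p = 0.226) and without the 5 arrays high in ventricular muscle markers (-0.17, adjusted p = 0.575).

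The difference between the chambers in this change was 1.36 ± 0.21 (adjusted p = 3.68e-04). It was 1.61 without the 5 arrays high in ventricular muscle markers (adjusted p = 2.18e-04). The log2 difference of Slit2 between atrium and ventricle went from -1.09 ± 0.15 at E12.5 (adjusted p = 2.47e-05) and -0.61 at E13.5 (adjusted p = 0.00771) to -0.47 at E14.5 (adjusted p = 0.0601). It was 0.03 at E16.5 (adjusted p = 0.916) and 0.27 at E18.5 (adjusted p = 0.231), neither of which passed. Over the alternative settings listed below, adjusted p-values were 0.00987 to 0.247 at E14.5 and 0.0381 to 0.581 at E18.5. The E13.5 call was lost without ventricular array 2 of that age (adjusted p = 0.072). In the heart region Slit2 read 2369, 2544 and 2269.9 at E10.5 and 3093, 3224 and 3228 at E11.5, groups that did not overlap, yet the difference of 0.41 did not pass the test across all probe sets (adjusted p = 0.218).

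The 3 Slit2 probe sets gave the same picture. Their ventricular falls were -1.78, -1.97 and -1.84, and their differences between chambers in the change were 1.36, 1.46 and 1.64, all called. Over the 10 groups of dissected chambers the other probe sets had a Pearson r of 0.98 and 0.93 with the representative probe set, as a description.

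Robo1, a receptor for both Slits, had 3 probe sets, of which 1 was measured. Its ventricular means were 956, 983, 882, 662 and 393 in order of age, and the change over this interval was -1.25 ± 0.36 (adjusted p = 0.00908). At E12.5 the ventricular arrays read 1088, 913 and 869, and at E18.5 they read 424, 315 and 441, with no overlap. In the atrium the change was -0.70 ± 0.36 and did not pass (adjusted p = 0.16). With array weights this atrial fall was called (-1.20, adjusted p = 9.96e-05). Over the alternative settings listed below it was -1.20 to -0.41, with adjusted p-values up to 0.512. The atrial and ventricular changes of Robo1 differed by 0.55 ± 0.51, which did not pass (adjusted p = 0.612).

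Robo1 was lower in atria in the mean of the 5 ages, with a log2 difference of -0.71 ± 0.16 (adjusted p = 6.75e-04). At single ages the log2 difference was -1.14 at E12.5 (adjusted p = 0.0415), -1.06 at E13.5 (0.0513), -0.95 for E16.5 (0.069) and -0.59 for E18.5 (0.274). The E13.5 difference was called with quantile normalization (adjusted p = 0.0408), median centring (0.031), a pseudocount of 69 (0.0488), the stricter filter (0.0389), array weights (0.0244) and averaged probe sets (0.0441). Leaving out atrial array 3 of E13.5 gave -1.37 and a call as well (adjusted p = 0.0247). The E16.5 difference was called on leaving out 1 array for 2 of its 6 arrays, with a lowest adjusted p of 0.0471. Over the alternative settings listed below, its adjusted p-values were 0.014 to 0.37. E14.5 stood apart with a difference of 0.20 (adjusted p = 0.787). There atrial array 1 read 2096, the highest Robo1 value of all 36 arrays, against 679.6 and 662 on the other atrial arrays and 596, 1082 and 969.6 on the ventricular arrays.

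Without that array the E14.5 difference of Robo1 was -0.34 (adjusted p = 0.613). The mean of the ages was -0.95 without the 5 atrial arrays high in ventricular muscle markers, to which it belongs. The call at E12.5 was lost when any of its 6 arrays but atrial array 2 was left out, with adjusted p-values up to 0.153. In the heart region at E11.5 Robo1 read 1477, 1515 and 1222, above every chamber array of E12.5. The difference of -1.12 ± 0.31 between E12.5 and E11.5 did not pass (adjusted p = 0.082).

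Robo2, the second Slit receptor of the set, had 1 probe set that reached at most 149.7 and was therefore not tested. In the heart region it read 120.3, 101.9 and 136 at E10.5 and 118, 149.7 and 138 at E11.5. In the dissected chambers its 15 atrial arrays lay between 13.0 and 102, with a median of 47.6, and its 15 ventricular arrays between 14.6 and 80.7, with a median of 44.3. Its heart region values were thus at the top of the range of the chamber arrays or above it, and the chambers overlapped.

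Over the 10 chamber groups r was 0.96 for Slit3 with Sema3d and 0.70 for Slit2 with Sema3a, as a description over groups that share arrays. For Slit2 with Robo1 it was higher, at 0.79. The promoters of the ligand genes Slit3 and Slit2 are shown with those of Sema3d and Sema3a. Each is the 250 bases before the start of the gene in RefSeq on GRCm38.p6, on the plus strand, at chr11:35121206-35121455 for Slit3, chr5:12382916-12383165 for Sema3d, chr5:47982905-47983154 for Slit2 and chr5:13396534-13396783 for Sema3a. Capitals mark a match to a searched motif.
Slit3: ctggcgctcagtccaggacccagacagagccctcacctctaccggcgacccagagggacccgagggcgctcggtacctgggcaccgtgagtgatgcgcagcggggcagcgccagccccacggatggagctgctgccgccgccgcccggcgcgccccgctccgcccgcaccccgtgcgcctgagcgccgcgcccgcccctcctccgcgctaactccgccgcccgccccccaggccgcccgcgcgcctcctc
Sema3d: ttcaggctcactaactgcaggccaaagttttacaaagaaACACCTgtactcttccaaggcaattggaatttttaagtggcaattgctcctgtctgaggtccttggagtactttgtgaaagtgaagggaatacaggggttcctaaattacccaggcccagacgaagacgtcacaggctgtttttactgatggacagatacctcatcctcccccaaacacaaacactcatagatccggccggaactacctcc
Slit2: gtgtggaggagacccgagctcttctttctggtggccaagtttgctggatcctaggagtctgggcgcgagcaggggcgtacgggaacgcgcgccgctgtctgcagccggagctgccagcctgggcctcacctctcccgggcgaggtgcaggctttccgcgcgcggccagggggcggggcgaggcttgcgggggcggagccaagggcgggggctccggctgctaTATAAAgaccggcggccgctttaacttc
Sema3a: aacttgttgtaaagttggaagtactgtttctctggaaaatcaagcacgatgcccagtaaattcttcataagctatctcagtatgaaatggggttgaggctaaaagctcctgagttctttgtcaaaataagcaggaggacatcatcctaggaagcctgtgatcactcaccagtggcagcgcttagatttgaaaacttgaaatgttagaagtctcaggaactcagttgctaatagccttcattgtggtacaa

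Of the 4 sequences, Slit3 held 78.8% G and C with 35 CpG pairs, Slit2 69.6% with 25, Sema3d 46.8% with 4 and Sema3a 40.8% with 2, against medians of 52.4% and 6 over all 32851 promoters. The 3 short motifs below were searched on both strands, and no matches overlapped. The T-box core site AGGTGT was in 11.8% of all promoters and, here, in Sema3d on the minus strand, 211 to 206 bases before the start. The letters TATAAA, in 12.4% of promoters, stood 28 to 23 bases before the start of Slit2. The nuclear receptor core site AGGTCA, in 14% of promoters, was not among these letters. Neither Slit3 with Sema3d nor Slit2 with Sema3a shared a match, and the arrays do not show which start site was used.

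Sema3d, a class 3 semaphorin ligand, was higher in atria at every age. At E13.5 it read 1161, 954 and 976 on the atrial arrays and 494, 561 and 581 on the ventricular arrays. At E18.5 it read 704, 645 and 759 in atria and 405, 399 and 569.9 in ventricles. At none of the 5 ages did the chambers overlap, although the ventricular maximum over all ages, 651, was above the atrial minimum of 645.

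The log2 differences of Sema3d were 0.85, 0.90, 0.91, 0.86 and 0.62 in order of age, each ± 0.21, with adjusted p-values of 0.00766, 0.0037, 0.00767, 0.00356 and 0.0328. Their mean was 0.83 ± 0.09 (adjusted p = 1.69e-08). The second probe set gave a mean of 0.69 ± 0.12 (adjusted p = 2.24e-05) and passed at E13.5 alone among single ages. The call at E18.5 was lost on leaving out ventricular array 1 or 2 or atrial array 1 or 3, with a range of 0.53 to 0.78, with median centring (0.56, adjusted p = 0.075) and without the 3 arrays high in lung markers (0.56, adjusted p = 0.135). Leaving out ventricular array 3 at E12.5 (adjusted p = 0.0711), or ventricular array 1 or atrial array 3 at E14.5 (adjusted p = 0.0535 and 0.0609), also ended the call of that age.

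Sema3d did not pass within a chamber, with a change from E12.5 to E18.5 of -0.25 ± 0.21 in the atrium (adjusted p = 0.403) and -0.02 ± 0.21 in the ventricle (adjusted p = 0.965). The heart region values, 462, 561 and 443 at E10.5 and 611, 723 and 362 at E11.5, fell in the range of ventricular arrays or just above it. Epicardial marker sums moved with Sema3d and Slit3 between the chambers: their atrial means were 17766, 17714, 13501, 16891 and 16853 and their ventricular means 10239, 8782, 7775, 7292 and 7590 in order of age. Atrial muscle markers differed between the chambers too, with 9 of 10 higher in atria in the mean of the ages. Their mean sums in atria and ventricles were 58482 and 45017 at E12.5 and 64672 and 28869 at E18.5. The part of epicardium or of atrial muscle in either gene was not tested.

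Sema3a, the semaphorin known for repelling sympathetic axons, fell in the ventricle, while its atrial change did not pass the test. At E12.5 the ventricular arrays read 1003, 757 and 911 and the atrial arrays 604.5, 721 and 724.5. At E18.5 the ventricular arrays read 317, 271 and 292 and the atrial arrays 569.5, 613 and 680.3. The ventricle was the higher chamber on each array at E12.5 and the lower one on each array at E18.5.

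The ventricular change of Sema3a was -1.54 ± 0.15 (adjusted p = 1.65e-08), and the atrial change -0.13 ± 0.15 did not pass (adjusted p = 0.556). The test of the difference between these changes gave 1.41 ± 0.21 (adjusted p = 1.84e-04). Between the chambers the log2 difference was -0.37 at E12.5 (adjusted p = 0.111), 0.25 at E13.5 (0.305) and -0.20 at E14.5 (0.447), none of which passed. It was 0.69 ± 0.15 at E16.5 (adjusted p = 0.00123) and 1.04 ± 0.15 at E18.5 (adjusted p = 6.41e-06). Over the alternative settings listed below, the E12.5 difference was -0.48 to -0.28, with adjusted p-values of 0.0064 to 0.381.

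All 3 Sema3a probe sets were called for the ventricular fall, at -1.54, -1.75 and -1.39, and for the difference between the chambers, at 1.41, 1.73 and 1.24. The ventricular means of the representative probe set were 890, 633, 684.5, 393 and 293. The sum of 4 measured Schwann cell and neural crest markers, which stand for cells that travel with cardiac nerves, was 927 to 1094 in ventricles at E12.5 and 1553 to 1728 at E18.5. In atria it was 1036 to 1083 and 1262 to 1472. Of these 4 markers, 2 rose in the ventricle and 1 in the atrium, and at E18.5 1 was lower in atria. The sum of 7 measured neuron markers was 1026 to 1271 in ventricles at E12.5 and 871 to 1545 at E18.5. In atria it was 880 to 1395 and 1158 to 1441. Of these 7 markers, 1 rose in the ventricle and 0 in the atrium, and 0 were called between the chambers at E18.5. The part of either list in the Sema3a differences was not tested.

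**Figure D2:**
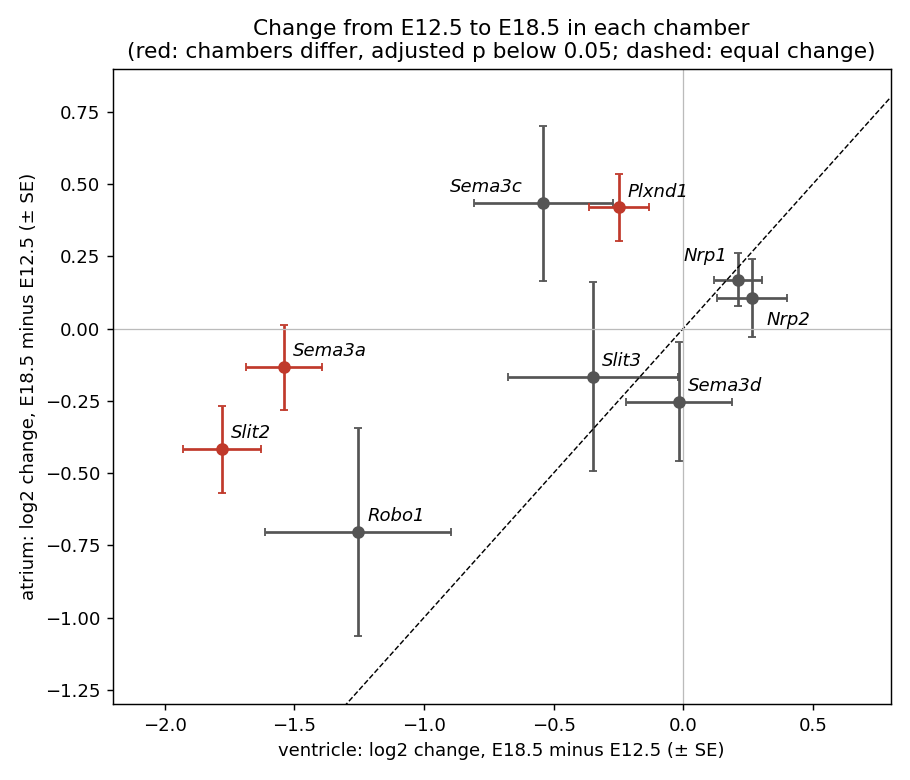
Log2 change from E12.5 to E18.5 in the ventricle (horizontal axis) and in the atrium (vertical axis) for the 9 measured genes, with SE bars; the dashed line marks equal change. Slit2 at -1.78 and -0.42, Sema3a at -1.54 and -0.13, and Plxnd1 at -0.25 and 0.42 are red, where the difference between the chambers passed the test.

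Sema3c, a ligand for neuropilins and Plxnd1, was highest before the chambers were dissected. It read 1752, 1799 and 1656 in the heart region at E10.5 and 1735, 1786 and 1673 at E11.5. At E12.5 the ventricular arrays read 823, 656 and 1312 and the atrial arrays 294, 547 and 461. All 24 later chamber arrays lay under the heart region arrays too, between 350.7 and 1234.

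From the heart region of E11.5 to the averaged chambers of E12.5, the change of Sema3c was -1.47 ± 0.23 (adjusted p = 8e-04), a fall of 2.77-fold. It was the single member called in that comparison, beside 1.16% of all genes tested. The heart region holds embryonic tissue that the dissected chambers lack, and tissue and day cannot be told apart here. The second Sema3c probe set gave -0.68 ± 0.17 and just missed the threshold (adjusted p = 0.0517), with 354 at E11.5 and 227 in the chambers at E12.5.

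The chambers differed in Sema3c at E12.5, with -1.06 ± 0.27 (adjusted p = 0.0112) and no overlap, and the second probe set gave -0.80 ± 0.20 (adjusted p = 0.0105). Leaving out ventricular array 3 of that day ended this call (-0.78, adjusted p = 0.0906), as did leaving out atrial array 1 (-0.81, adjusted p = 0.11). At later ages the log2 differences were -0.34, 0.43, 0.52 and -0.08, and none passed. At E14.5 atrial array 1 read 1234 against 456 and 557 on the other atrial arrays, which is the array that was also highest in Robo1. The probe sets of Sema3c had an r of 0.49 over the 10 chamber groups, the lowest for a semaphorin.

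Nrp1, the neuropilin that binds Sema3a and also serves as a coreceptor of VEGF, had 4 measured probe sets. On the representative one the 15 atrial arrays lay between 3662 and 5273, with a median of 4466, and the 15 ventricular arrays between 4121 and 5464, with a median of 4954. The mean log2 difference of -0.12 ± 0.04 passed (adjusted p = 0.0221), and on this probe set no single age did. Averaging all probe sets of Nrp1 gave calls at E12.5 (-0.27, adjusted p = 0.0468), E16.5 (-0.42, adjusted p = 0.0012) and E18.5 (-0.37, adjusted p = 0.0029). The other 3 probe sets gave -0.30, -0.47 and -0.27, all called. Over the 10 chamber groups their r with the representative probe set ranged from 0.11 to 0.91. The call of the representative probe set was lost with quantile normalization (-0.08, adjusted p = 0.0954) and median centring (-0.10, adjusted p = 0.148).

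For Nrp2, the neuropilin with a preference for other class 3 semaphorins, the chambers parted at E16.5. The ventricular arrays then read 737, 807 and 785 and the atrial arrays 511, 458 and 501. The difference was -0.65 ± 0.14 (adjusted p = 0.00105), with no overlap. At E18.5 it was -0.37 ± 0.14 and just missed the threshold (adjusted p = 0.0527), although 617, 578 and 749.7 in ventricles were all above 451, 520.1 and 517 in atria. It was called at E18.5 with quantile normalization (-0.42, adjusted p = 0.0171), median centring (0.0186), the stricter filter (0.0431), array weights (0.0273) and averaged probe sets (-0.67, adjusted p = 0.00242). Leaving out ventricular array 2 of E18.5 also gave a call (-0.45, adjusted p = 0.0431).

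The Nrp2 probe sets differed in their change over time. In the ventricle the representative probe set gave 0.27 ± 0.14 (adjusted p = 0.145), while the other measured ones rose by 1.22 ± 0.24 (adjusted p = 2.44e-04) and 0.71 ± 0.22 (adjusted p = 0.0158). At E16.5 all 3 were called lower in atria, at -0.65, -0.97 and -0.73. In the mean of the 5 ages they gave -0.23 ± 0.06 (adjusted p = 0.00244), -0.40 and -0.21, of which the last did not pass (adjusted p = 0.0909).

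Plxnd1, the plexin of endothelial cells through which Sema3c and other semaphorins act, was even between the chambers in the mean of the ages (-0.02 ± 0.05, adjusted p = 0.837). The atrial arrays read 1483, 1924 and 2536 at E12.5 and 2472, 2646 and 2665 at E18.5. The ventricular arrays read 2379, 2476 and 2232 at E12.5 and 1999, 2049.7 and 1909 at E18.5. The atrium was thus spread wide at E12.5 and lay above the ventricle on every array at E18.5.

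The E18.5 difference of Plxnd1 was 0.38 ± 0.11 (adjusted p = 0.0169). Its atrial change of 0.42 ± 0.11 passed (adjusted p = 0.0076), the ventricular change of -0.25 ± 0.11 did not (adjusted p = 0.107), and the difference between these changes was 0.67 ± 0.16 (adjusted p = 0.0169). That last call was lost without E12.5 atrial array 1 (0.48, adjusted p = 0.0703), without the 3 arrays high in lung markers (0.65, adjusted p = 0.0582) and with median centring (0.56, adjusted p = 0.177). The atrial call went without E12.5 atrial array 1 too (0.23, adjusted p = 0.138), and the E18.5 call without ventricular array 3 or atrial array 2 or 3 of that age, with adjusted p-values up to 0.0647, without the lung arrays (0.074) and with median centring (0.139). Of 12 endothelial markers, 8 rose in the atrium over this interval, while in the ventricle 3 rose and 2 fell. Their sums in atria were 15371 to 24712 at E12.5 and 30226 to 32875 at E18.5. In ventricles the sums were 23454 to 24979 at E12.5 and 23741 to 25210 at E18.5. The part of these cells in the result was not tested.

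**Figure D3:**
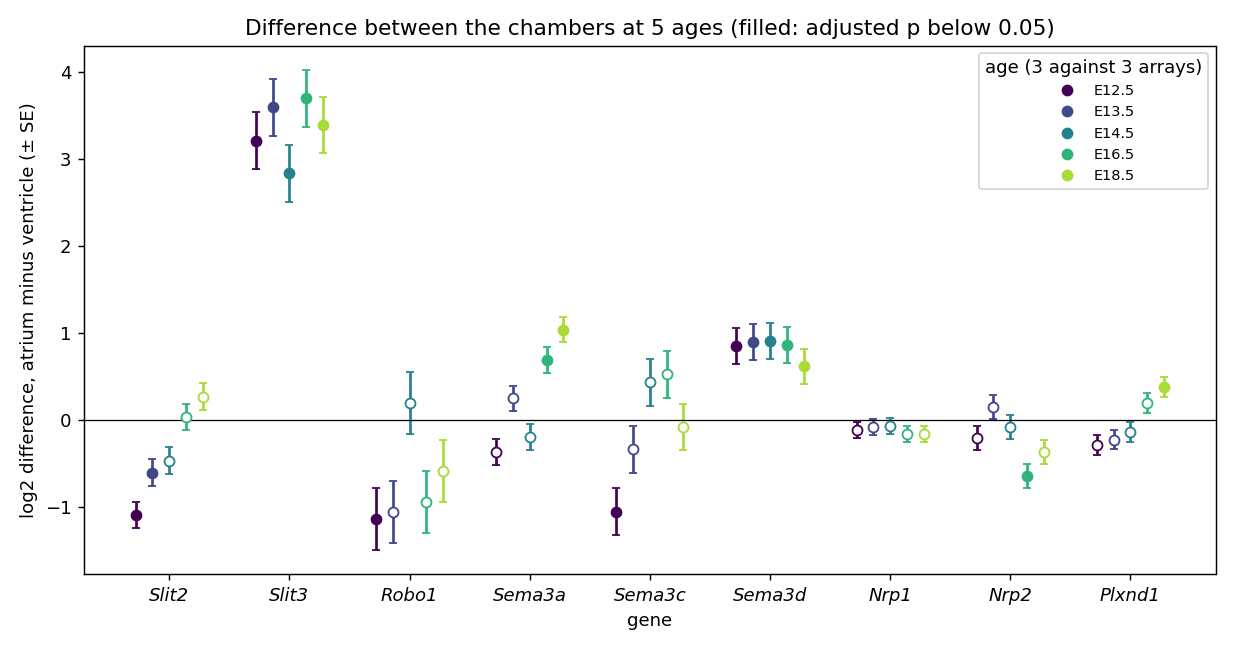
Log2 difference of atrium minus ventricle (vertical axis, with SE bars) for each of the 9 measured genes at 5 ages, 3 against 3 arrays; filled points passed the test. Slit3 lies between 2.84 and 3.70 and Sema3d between 0.62 and 0.91 at all ages, while Slit2 moves from -1.09 to 0.27 and Sema3a from -0.37 to 1.04.

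Age by age, the members called between the chambers changed. At E12.5 they were 5 of the 9, with 2 higher in atria (Slit3 and Sema3d) and 3 lower (Slit2, Robo1 and Sema3c), beside 11.3% of all genes tested. At E13.5 Slit3 and Sema3d were higher and Slit2 lower, beside 14.5%. At E14.5, the age with the highest ventricular marker levels in atria, Slit3 and Sema3d were the 2 called, beside 7.43%. This share is 965 of the 12983 genes. Over all 27256 probe sets tested, 1684 were called, and 545 to 1954 on leaving out 1 array. At E16.5 Slit3, Sema3d and Sema3a were higher and Nrp2 lower, beside 19.6%. At E18.5 the 4 called were Slit3, Sema3a, Sema3d and Plxnd1, each higher in atria, beside 22.7%, although Nrp2 was called lower, and Sema3d and Plxnd1 were not called, under the alternatives named above. The median log2 difference of the 9 genes was -0.28 at E12.5 and 0.27 at E18.5, while that of all genes was -0.02 and 0.01.

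Over the whole interval from E12.5 to E18.5, 3 of the 9 genes fell in the ventricle (Slit2, Sema3a and Robo1), beside 31.5% of all genes called in either direction. In the atrium Plxnd1 rose and Slit2 fell, beside 27.4%. The change differed between the chambers for 3 of 9, Slit2, Sema3a and Plxnd1, each with a higher atrial than ventricular change, beside 4.56%. The latter share is 592 of the 12983 genes. Over all 27256 probe sets tested, 1030 were called, which became 452 to 2014 on leaving out 1 array and 4733 with array weights. The median of this difference was 0.55 over the 9 genes and 0.03 over all genes. The atrial and ventricular changes at E12.5 and E18.5 and the differences between chambers at those ages use the same arrays.

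In the heart region, the step from E10.5 to E11.5 gave 0 of 9 calls in limma's test, beside 1.51% of all genes tested. At an unadjusted p below 0.05 there was 1, Slit2. With array quality weights there was 1 call, and in a fit to those 6 arrays alone there were 2. The share of 1.51% belongs to the main fit. Over all probe sets tested, 315 were called in that fit, 2417 with array weights and 2218 in the fit to those 6 arrays.

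**Figure D4:**
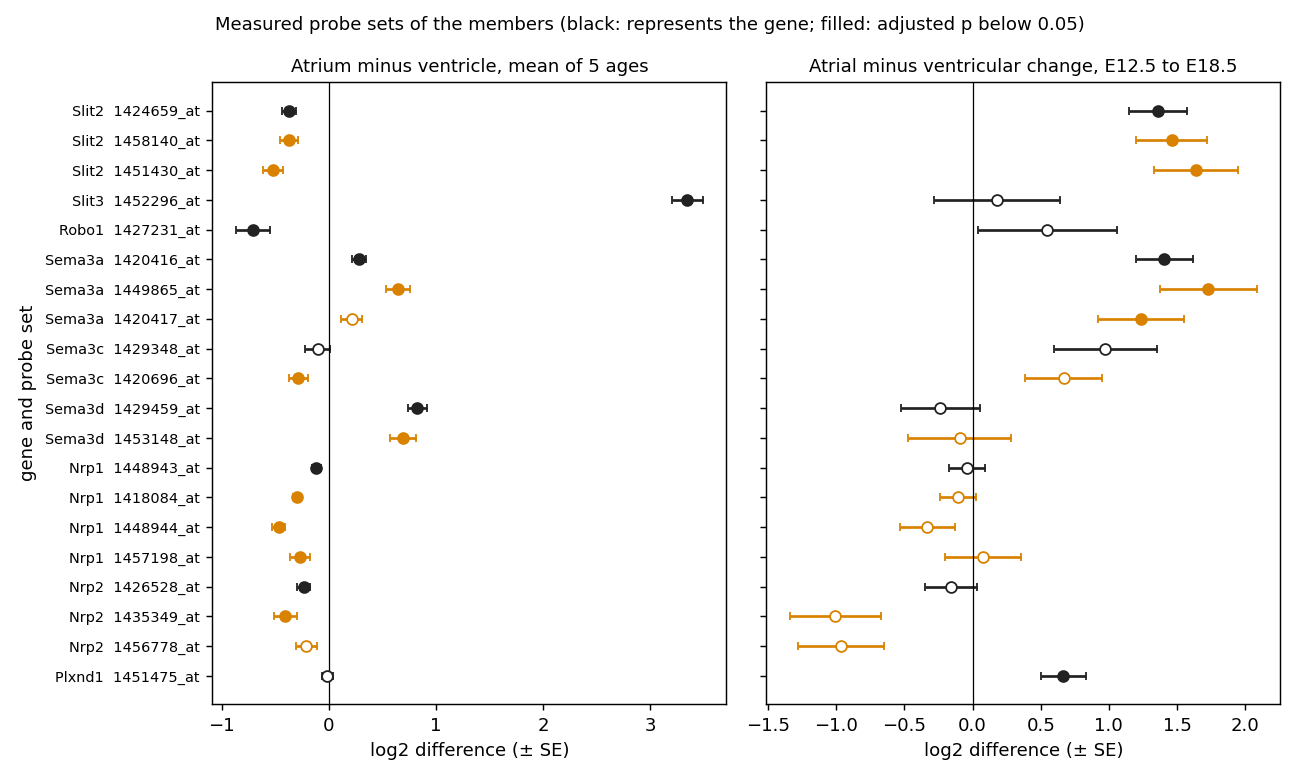
Log2 differences with SE bars for each of the 20 measured probe sets: atrium minus ventricle in the mean of 5 ages (left) and atrial minus ventricular change from E12.5 to E18.5 (right). Black marks the probe set that represents a gene and filled points passed the test. The 3 probe sets of Slit2 (1.36 to 1.64) and of Sema3a (1.24 to 1.73) lie together on the right, while those of Nrp2 lie apart.

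The genes most like each member were those with the highest Pearson correlation over the 10 means of the dissected chambers, in log2, as a description. For Slit3 they were Vsnl1 (r = 0.997), which encodes a neuronal calcium sensor, Nr2f1 (0.990), a nuclear receptor of atrial muscle, and Ccn4 (0.990), a secreted matrix protein. Their differences between the chambers were 3.93, 3.12 and 1.48, beside 3.35 for Slit3. That they are higher in atria follows from how they were picked. For Sema3d they were the Wnt receptor Fzd7 (0.98), the phosphodiesterase gene Pde5a (0.98) and Golga5 (0.98). Slit2 was followed by Ankrd16 (0.98), Cadps (0.97) and Dync1i1 (0.96), and Sema3a by Ganab (0.96), Srgap2 (0.96) and Klhl6 (0.96). Srgap2 encodes a GTPase-activating protein that binds Robo receptors, and it is in the list of Slit and Robo pathway genes below.

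For Robo1 the genes were Zfhx3 (0.99), Fzd2 (0.97) and Zfp598 (0.96). Nrp1 was followed by the cardiac cofactor gene Zfpm2 (0.98), Meox2 (0.97) and Sparcl1 (0.97), and Plxnd1 by Tnip2 (0.96), Pgbd5 (0.94) and Nos3 (0.94), the endothelial nitric oxide synthase. Nrp2 was followed by Tmco5 (0.98), 9330198I05Rik (0.96) and Gfra2 (0.92). Sema3c had the weakest matches, Wipf2 (0.86), Nckap1 (0.85) and Cops3 (0.85). Among the members themselves, the highest r was 0.96 for Slit3 with Sema3d, then 0.81 for Nrp1 with Nrp2 and 0.79 for Slit2 with Robo1, and the lowest was -0.75 for Sema3a with Nrp1.

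Of 17 other genes of the Slit and Robo pathway measured, 1 was higher in atria in the mean of the ages, 5 were lower and 11 did not pass, beside the 46.5% of all genes tested, with a median of -0.01. Robo4, the Robo of endothelial cells, was lower in atria (-0.75 ± 0.06, adjusted p = 3.55e-11), with means of 365 and 656 in ventricles at E12.5 and E18.5 and 218 and 364 in atria. The heparan sulphate proteoglycan gene Gpc1 was lower (-0.30 ± 0.09) and Sos1, an exchange factor that links Robo to Rac, higher (0.21 ± 0.04). From E12.5 to E18.5, 3 rose and 4 fell in the ventricle, beside 31.5% of all genes, and 2 rose and 1 fell in the atrium, beside 27.4%.

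Of 15 other semaphorins measured, 3 were higher and 6 lower in atria in the mean of the ages, beside 46.5% of all genes tested, with a median of -0.05. Sema3b, another class 3 ligand, went against Sema3d and was lower in atria (-1.34 ± 0.11, adjusted p = 6.42e-11), with means of 266 and 346 in ventricles at E12.5 and E18.5 and 67.0 and 119.5 in atria. Sema7a, which is anchored to the membrane, was lower (-0.93 ± 0.15), and the transmembrane Sema5a was higher (0.69 ± 0.14). Of 8 other plexins, 3 were higher in atria, Plxnc1 (0.64 ± 0.06), Plxnb3 (0.62 ± 0.25) and Plxna4 (0.59 ± 0.09), and the other 5 did not pass, beside the same 46.5%. Over time 3 plexins fell in the ventricle, beside 31.5%.

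Of 16 measured transducers of semaphorin signals, 2 were higher and 6 lower in atria in the mean of the ages, beside 46.5% of all genes tested, with a median of -0.08. Dpysl5, of the collapsin response mediator family, was higher (1.50 ± 0.11, adjusted p = 2.46e-12), with 264 in atria and 132 in ventricles at E12.5 and 238 and 58.8 at E18.5. Its relative Dpysl3 was lower (-0.55 ± 0.05), as was the kinase gene Fes (-0.56 ± 0.14).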

How the data were processed

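The deposited table held an intensity, not in logs, for 45101 probe sets on each of 36 arrays; the software and target level used by the authors are not given in the sources used here. Every array had a 2% trimmed mean of 500.0, with medians between 143.7 and 210.8, and this scaling was kept. After 64 control probe sets were left out, 34945 of 45037 had 1 gene symbol in the platform annotation, 932 had several and 9160 had none; 34741 matched RefSeq by Entrez ID. Values were analysed as log2(intensity + 17). A probe set was tested if 3 or more arrays exceeded 171.8, the median of all values (27256 probe sets), and a gene stood for its measured probe set with the highest mean (12983 genes).

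R 4.3.3 with limma 3.58.1 fitted 12 group means with an intensity trend, 24 residual and 5.7 prior degrees of freedom. Tests were two-sided, adjusted by Benjamini-Hochberg over 27256 probe sets within each of 11 comparisons. The script was tested on simulated data. With 3 arrays a group, their number limits the precision. Correlations between arrays of a group were 0.941 to 0.984.

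Members, lists and comparisons were chosen with earlier results of these data known. Named genes were all members, up to 3 called genes of each pathway list with the largest change in the mean of 5 ages, and the 3 genes most like each member. Alternatives were no filter, a filter at the 75th percentile (582.9), pseudocounts of 1 and 69, quantile normalization, centring on array medians, averaging the probe sets of a gene, no trend, array weights, a replicate block, only the arrays compared, and leaving out each array. Chosen after seeing the data were fits without E14.5, without 3 atrial arrays high in lung genes, without 2 arrays high in liver genes and without 5 atrial arrays high in ventricular muscle genes. Promoters are from RefSeq on GRCm38.p6, where all 10 genes had an entry. Figures were drawn with matplotlib 3.10.9.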

Additional observations from a re-analysis of the deposited data

Results flagged for a closer look

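Between E12.5 and E18.5 the atrium and the ventricle changed by different amounts, by the test of that difference, for 7 measured probe sets of 3 genes. All 7 values are atrial minus ventricular log2 changes with SE from limma. Slit2 had 1.36 ± 0.21 (adjusted p = 3.68e-04), 1.46 ± 0.26 (0.00138) and 1.64 ± 0.31 (0.00234). Sema3a had 1.41 ± 0.21 (adjusted p = 1.84e-04), 1.73 ± 0.36 (0.00497) and 1.24 ± 0.32 (0.0233). Plxnd1 had 0.67 ± 0.16 (adjusted p = 0.0169).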

How the results depend on the processing

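Of 2286 log2 differences of members under alternatives, 2135 kept their direction and their side of the threshold, 52 lost a call, 48 gained one and 51 changed sign, of which 0 were called on either side. For the 7 members called in the mean of 5 ages, the call held under each alternative except for Nrp1, which lost it with quantile normalization (-0.08) and median centring (-0.10). Atrial and ventricular arrays of the same number and age had correlations of their deviations between -0.34 and 0.16. Of 15 atrial arrays, 2 matched their own number best. That check was made within each age and cannot show whether a number stands for a batch across ages. The 3 arrays high in lung markers were each array 3 of their group, and the 2 high in liver markers each array 2. With the replicate number as a block, Robo1 lost its call at E12.5 (adjusted p = 0.0509), Slit2 gained one at E14.5 (adjusted p = 0.0374), and no other member call changed.

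Counts of members called moved as follows. For the atrial change over E12.5 to E18.5, 2 in the report, the count was 0 with median centring and with only the arrays compared, 1 with no filter, no trend, the mean of probe sets, without the liver arrays and without the 5 arrays high in ventricular muscle genes, and 4 with array weights. The ventricular change had 5 with array weights in place of 3. The step from E10.5 to E11.5 had 1 with array weights and 2 with only the arrays compared, in place of 0. The step from E11.5 to E12.5 had 2 in place of 1 with array weights, only the arrays compared and without the 5 arrays. Between the chambers, only the arrays compared gave 2 in place of 5 at E12.5 and 0 in place of 2 at E14.5. E18.5 had 2 in place of 4 without the lung arrays. Leaving out 1 array gave 2 to 5 at E12.5, 1 to 2 at E14.5, 2 to 4 at E18.5, 1 to 2 for the atrial change and 1 to 2 for the step to E12.5. Over all probe sets, the count called for the chamber difference in change was 1030, with 425 under median centring, 4733 with array weights, 407 with only the arrays compared and 452 to 2014 on leaving out 1 array. At E14.5 it was 1684, with 670 under array weights, 29 with only the arrays compared and 545 to 1954. At E12.5 it was 2637, with 6994 under array weights, 279 with only the arrays compared and 1228 on leaving out atrial array 1. For the steps to E11.5 and E12.5 it was 315 and 255, with 2417 and 2907 under array weights, and 2218 and 114 with only the arrays compared. For the atrial change it was 6610, with 12642 under array weights and 4051 with only the arrays compared. Between the chambers at E18.5 it was 5314, with 8474 under array weights and 3454 without the lung arrays. The member counts of these settings thus moved along with the counts over all probe sets.

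The sign turned, with no call, in these cases. With quantile normalization they were Nrp1 at E13.5 (0.0045), Slit2 at E16.5 (-0.0011), the ventricular change of Sema3d (0.0446) and the chamber difference in the change of Nrp1 (0.0749). With median centring they were the mean of Plxnd1 (8e-04), E14.5 for Nrp1 (0.0324) and Nrp2 (0.0155), and the ventricular change of Sema3d (0.0552). Slit3 in the step to E12.5 gave 0.11 with the pseudocount of 69, and the atrial change of Nrp2 gave -0.0655 with array weights. The mean of probe sets turned Nrp2 at E14.5 (0.14), E13.5 (-0.14) and E12.5 (0.0432), and Sema3a (-0.0151) and Nrp2 (-0.0535) in the step to E12.5. Slit2 at E16.5 gave -0.0603 without the lung arrays, and the mean of Plxnd1 gave 0.0165 without E14.5. Without the 5 arrays high in ventricular muscle genes, the mean of Plxnd1 was 0.03, E14.5 gave -0.36 for Robo1, 0.10 for Sema3a and 0.10 for Nrp2, the atrial change of Slit3 was 0.0665 and the chamber difference in the change of Nrp2 0.014. The cause was not tested.

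Leaving out 1 array turned signs within these ranges. In the step from E10.5 to E11.5 they were -0.38 to 3e-04 for Slit3, -0.0361 to 0.0229 for Sema3c and -0.0441 to 0.44 for Sema3d. In the step to E12.5 they were -0.28 to 0.11 for Slit3, -0.0251 to 0.11 for Sema3a and -0.10 to 0.38 for Sema3d. Over E12.5 to E18.5 they were -0.25 to 0.23 for Sema3d in the ventricle, -0.50 to 0.12 for Slit3 and -0.0113 to 0.22 for Nrp2 in the atrium, and -0.15 to 0.47 for Slit3 and -0.14 to 0.0578 for Nrp1 in the difference between chambers. Between the chambers they were -0.0539 to 0.0229 for the mean of Plxnd1, -0.34 to 0.48 for Robo1 and -0.19 to 0.0143 for Nrp2 at E14.5, -0.0754 to 0.13 for Slit2 at E16.5 and -0.18 to 0.0502 for Sema3c at E18.5. The table gives no detection calls, so how far low signals stand above background limits Slit3 in ventricles and Robo2.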

Other observations

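In the mean of the 5 ages, 8 of 15 measured ephrins and Eph receptors were higher in atria, 2 lower and 5 did not pass, beside 46.5% of all genes called, with a median log2 difference of 0.23 against -0.003 over all genes tested. Epha4, a receptor tyrosine kinase, was higher in atria by 2.41 ± 0.12 (adjusted p = 3.3e-15 in limma), with means of 990 ± 419 in atria and 333 ± 14.7 in ventricles at E12.5 (SD, n = 3) and 2462 ± 178 and 269 ± 60.3 at E18.5. Epha7 was higher as well (0.95 ± 0.09), and the ligand gene Efnb3 was lower (-1.17 ± 0.10). In the ventricle 1 of the 15 rose and 5 fell from E12.5 to E18.5, beside 31.5% of all genes called.

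The 8 measured netrins and netrin receptors all passed the test between the chambers in the mean of the ages, with 3 higher and 5 lower in atria, beside 46.5% of all genes. At single ages 2, 4, 1, 3 and 1 of the 8 passed, in order of age. The basement membrane netrin Ntn4 was lower (-1.21 ± 0.22), with ventricular means of 253 at E12.5 and 1019.6 at E18.5 and atrial means of 116 and 489. The receptor gene Dcc was lower (-0.90 ± 0.19) and Unc5c, also a receptor gene, higher (0.61 ± 0.14). Of 7 measured VEGF ligands and receptors, which share Nrp1 and Nrp2 with the semaphorins, 1 was higher in atria, 4 were lower and 2 did not pass in the mean of the ages, beside the same 46.5%. Vegfa was lower by -0.85 ± 0.08 and Vegfb by -0.57 ± 0.07 on the log2 scale, and Vegfd was higher (0.51 ± 0.15). In each chamber 3 of these 7 rose from E12.5 to E18.5, beside 31.5% of all genes called in the ventricle and 27.4% in the atrium.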
